A study of Oryza sativa with 4 samples.

Results

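Expansins, xyloglucan endotransglucosylases/hydrolases (XTH) and 1 pectinesterase, proteins that loosen or remodel the plant cell wall, were followed in the coleoptile of rice before and during its senescence. The members were 35 rice loci given by locus ID, namely expansins, XTH loci and the pectinesterase LOC_Os02g18650. Of these, 18 loci had a row in the tables, which hold 3339 loci or unannotated transcripts in all, and the 18 were read from 19 transcripts. The tables list transcripts that differed between the groups by 4-fold or more, or that were listed at 0 in control. Selection by p-value, described below, may have been applied to these transcripts as well. The study kept transcripts found only at day 2 in this set but not those found only in control. No lower locus was at 0 at day 2, the smallest value being 0.0815 FPKM. A member lost altogether at day 2 would thus have no row, and the shares of lower and higher loci are not symmetric by selection. The other 17 members had no row and are reported as not listed, which says nothing about their level.

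Coleoptiles of wild type rice, variety PB1 (Pusa Basmati 1), were profiled by RNA sequencing in 4 libraries, 2 of each group. Control coleoptiles came from seeds submerged for 7 days and were taken at an age of 7 days. Day 2 coleoptiles shared those 7 days of submergence, were then kept in air for 2 days while senescence set in, and were taken at an age of 9 days. The labels give submergence as the treatment of all 4 libraries, and the move to air comes from the protocols. Air, age and senescence therefore differ together between the groups and cannot be told apart. Per the study's methods, the libraries of a group came from separate biological replicates, but the tables hold 1 pooled value per transcript and group. The values have no spread between libraries, so no difference was tested here. A locus is called higher or lower only by size: a ratio of at least 4-fold, with FPKM of at least 1 in at least 1 group. The study's methods state that p-values were computed from the replicates and used to shortlist transcripts. Those p-values were not used here to call a locus. The listed transcripts may already have passed that shortlist, so a large change that failed it could have no row. FPKM counts sequenced fragments relative to transcript length and to all mapped fragments. It is a level corrected for transcript length, so that levels of different loci can be set side by side. The tables do not give the number of fragments behind a value, and low values are the least certain. In whole coleoptiles, fewer cells of a type and less RNA per cell cannot be told apart.

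A growing plant cell is held by cellulose microfibrils that are tied together by xyloglucan and other matrix polysaccharides and embedded in pectin. Expansins loosen this network at acid pH without cutting the polymers, XTH enzymes cut xyloglucan chains and join or release the ends, and pectinesterases remove methyl groups from pectin, after which the pectin can be stiffened by calcium or degraded by other enzymes. Under water the rice coleoptile elongates by cell expansion to reach the surface, and elongation stops after the seedling meets air.

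Among the 18 listed members, 11 were lower at day 2, 6 were higher and 1 was at 0 in control and above 1 FPKM at day 2. Lower loci made up 61.1% of the listed members and 34.4% of all 3339 loci in the tables. Higher loci made up 56.8% of the tables, and loci at 0 in control with FPKM of at least 1 at day 2 a further 7.73%. The median log2 ratio of day 2 to control was -2.44 over the members and 2.35 over all listed loci. Members thus lay on the lower side more often than the tables as a whole, and control level, given further on, went with that direction. The summed FPKM of the members was 7524 in control and 1060 at day 2, a 7.10-fold lower sum, while that of all listed loci was 1.86-fold lower. Without the pectinesterase, 10 of 17 listed members, or 58.8%, were lower. Their sum was 5977 in control and 1059 at day 2, which is 5.64-fold lower. The lower share also depended on the member list. Over all listed loci of a class, members or not, 31.25% of expansins, 46.2% of XTH loci and 81.8% of pectinesterases were lower.

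**Figure D1:**
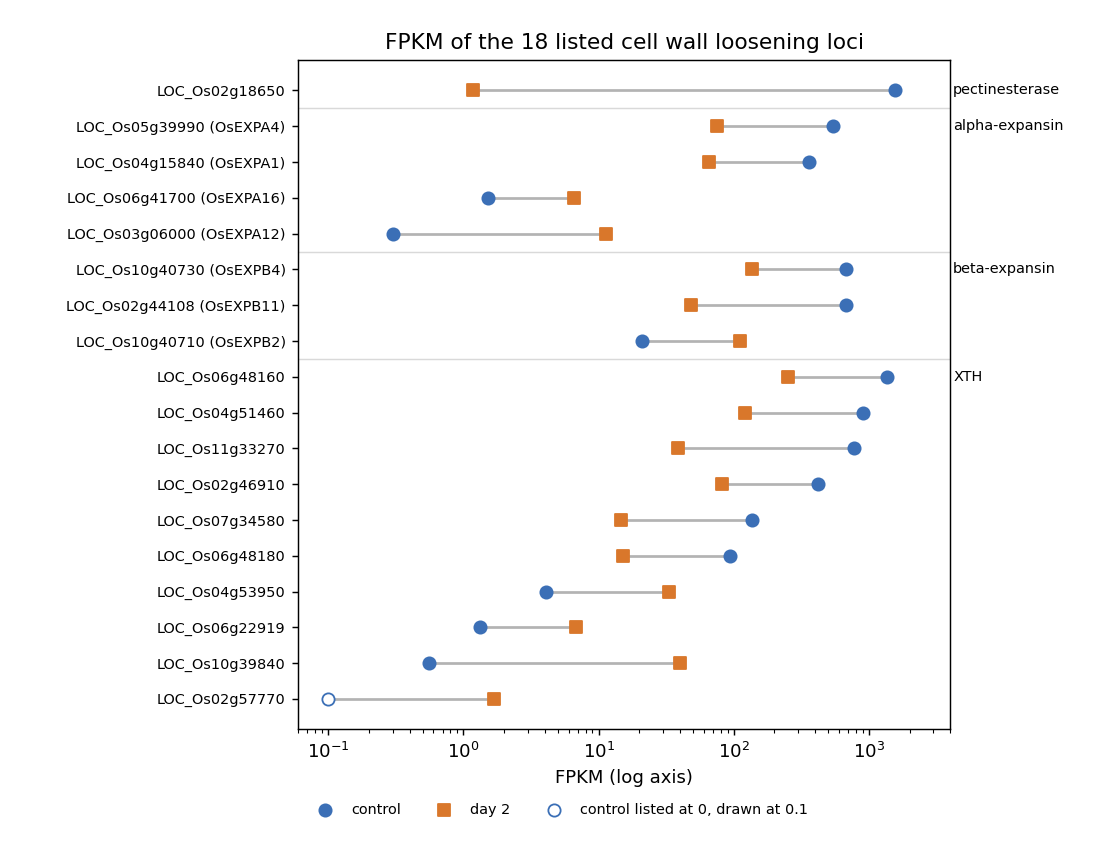
FPKM of the 18 listed members in control (circles) and at day 2 (squares) on a log axis, by class, with 1 pooled value per group and no error bars; the open circle is LOC_Os02g57770, listed at 0 in control and drawn at 0.1. The 11 lower members start between 94.0 and 1548 FPKM in control, and the 6 higher members start between 0.303 and 20.8.

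The pectinesterase LOC_Os02g18650 showed the largest change of all members. Its primer pair, which the study designed for quantitative PCR, is shown because this locus carries the largest fall and the pair marks the stretch of transcript that can be amplified. The pair is written 5′ to 3′, with no base in capitals since no part of it is singled out.
LOC_Os02g18650 forward: ggctaccaggacaccctctac
LOC_Os02g18650 reverse: aggttgcagctctggaagac
The forward primer has 21 bases with 61.9% G or C, and the reverse primer has 20 bases with 55% G or C. The locus lies at chr2:10864068-10867222 of IRGSP-1.0, the genome build of the files.

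The FPKM of this pectinesterase was 1548 in control and 1.18 at day 2, a log2 ratio of -10.36 and a 1314-fold lower value. It was the most abundant member in control and the least abundant at day 2. No other locus among the 1150 that were lower in the tables had a log2 ratio as far below 0. Among all 3339 loci it ranked 24 by control FPKM and 3011 by day 2 FPKM. Its share of the summed FPKM of the members was 20.6% in control and 0.111% at day 2. The size of this ratio rests on a day 2 value near 1 FPKM, so the fold is less certain than the direction. By quantitative PCR on biological replicates, the study reported pectinesterase significantly lower as senescence went on.

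Alpha-expansins, the class of expansins that acts on the walls of most land plants, split evenly, with 2 of the 4 listed members lower and 2 higher. OsEXPA4 (LOC_Os05g39990, chr5:23495653-23497572) had 540.0 FPKM in control and 75.3 at day 2, 7.17-fold lower. OsEXPA1 (LOC_Os04g15840, chr4:8599013-8600248) had 359.5 FPKM in control and 65.0 at day 2, 5.53-fold lower. Both were among the abundant transcripts of the submerged coleoptile and neither was near 0 after 2 days in air. OsEXPA16 (LOC_Os06g41700, chr6:24982295-24986652) had 1.51 FPKM in control and 6.57 at day 2, 4.36-fold higher. OsEXPA12 (LOC_Os03g06000, chr3:2998854-2999999) had 0.303 FPKM in control and 11.3 at day 2, 37.3-fold higher. Even at day 2 these alpha-expansins were under OsEXPA4 and OsEXPA1, which led the class in both groups. Their summed FPKM was 901.3 in control and 158.2 at day 2, 5.70-fold lower.

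Beta-expansins, a class that is expanded in grasses and acts on grass walls, had 3 listed members, of which 2 were lower and 1 was higher. OsEXPB4 (LOC_Os10g40730, chr10:21858852-21861259) had 679.2 FPKM in control and 136.0 at day 2, 4.99-fold lower. OsEXPB11 (LOC_Os02g44108, chr2:26648836-26650582) had 673.0 FPKM in control and 48.6 at day 2, 13.9-fold lower. Nearly equal in control, these beta-expansins were apart at day 2, with OsEXPB11 the lower. OsEXPB2 (LOC_Os10g40710, chr10:21835932-21837651) had 20.8 FPKM in control and 111.1 at day 2, 5.35-fold higher. OsEXPB2 was the most abundant of the higher members in both groups, and at day 2 its level lay between those of OsEXPB4 and OsEXPB11. Over all 7 listed expansins of the member list, the summed FPKM was 2274 in control and 453.9 at day 2, 5.01-fold lower.

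XTH loci were the largest class, with 10 listed members, of which 6 were lower, 3 were higher and 1 was at 0 in control. LOC_Os06g48160 (chr6:29133105-29134569), which the study's annotation places nearest to TCH4 of Arabidopsis, a touch-induced xyloglucan endotransglucosylase, had 1366 FPKM in control and 251.5 at day 2, 5.43-fold lower. LOC_Os04g51460 (chr4:30482210-30483492), annotated as similar to Arabidopsis MERI5B, had 900.9 FPKM in control and 121.4 at day 2, 7.42-fold lower. LOC_Os11g33270 (chr11:19675011-19677815), annotated as similar to the Arabidopsis endoxyloglucan transferase EXGT-A4, had 778.3 FPKM in control and 38.5 at day 2, 20.2-fold lower. These were the XTH members with the highest control levels, and the last of them had the largest XTH fall. LOC_Os06g48160 became the most abundant member of any class at day 2, with 23.7% of the summed FPKM of the members against 18.2% in control.

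The remaining lower XTH members were less abundant in control. LOC_Os02g46910 (chr2:28622390-28624619) had 419.4 FPKM in control and 82.5 at day 2, 5.09-fold lower. LOC_Os07g34580 (chr7:20729431-20731215) had 137.4 FPKM in control and 14.7 at day 2, 9.37-fold lower. LOC_Os06g48180 (chr6:29144887-29146522) had 94.0 FPKM in control and 15.1 at day 2, 6.22-fold lower. LOC_Os07g34580 was the only member with more than 1 transcript in the tables, and both of its transcripts were lower. The first transcript had 74.3 FPKM in control and 7.25 at day 2, and the second had 63.1 and 7.41, with log2 ratios of -3.36 and -3.09.

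Of the XTH members that were higher, LOC_Os10g39840 had the largest rise of all members. This locus (chr10:21320573-21322000), annotated as similar to Arabidopsis XTR8, an XTH-related protein, had 0.556 FPKM in control and 39.7 at day 2, 71.5-fold higher. LOC_Os04g53950 (chr4:32145680-32147446) had 4.08 FPKM in control and 33.2 at day 2, 8.15-fold higher. These XTH loci reached levels at day 2 close to that of LOC_Os11g33270, which had been far above them in control. LOC_Os06g22919 (chr6:13389881-13390271) had 1.33 FPKM in control and 6.83 at day 2, 5.16-fold higher. Its identity is uncertain, since 1 table of the study annotates it as an XTH and another as a defensin-like protein, and its interval in the files spans 391 bases. LOC_Os02g57770 (chr2:35376561-35378825) was listed at 0 in control and had 1.69 FPKM at day 2, so no fold was computed. Over the 10 XTH members the summed FPKM was 3702 in control and 605.1 at day 2, 6.12-fold lower.

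The direction of the members went with their control level, as it did in the tables as a whole. The 11 lower members had a median control FPKM of 673.0, and the 6 higher members a median of 1.42. These ranges did not overlap. Of the 345 loci in the tables with a control FPKM at or above that of LOC_Os06g48180, the lowest of the lower members, 340 or 98.6% were lower, and all 11 members at those levels were lower. Of the 2549 loci at or below the control FPKM of OsEXPB2, the highest of the higher members, 16.9% were lower, and none of the 7 members there was. A locus under 1 FPKM in control could not be called lower by the rule used, so this low share was in part fixed in advance. Among those 7 members that holds for OsEXPA12, LOC_Os10g39840 and LOC_Os02g57770. With that limit, the directions of the members were those of most listed loci of like control level. Many members were abundant in control: 10 of the 18, or 55.6%, had at least 100 FPKM, against 9.91% of all listed loci.

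The sizes of most changes were moderate. Among the 11 lower members, 7 were between 4-fold and 8-fold lower, 3 were between 8-fold and 32-fold lower, and 1, the pectinesterase, was lower by more than that. Changes of 4-fold to 8-fold made up 63.6% of the lower members and 57.4% of all 1150 lower loci. The median log2 ratio was -2.84 over the lower members and -2.81 over all lower loci. Among the 6 higher members, OsEXPA12 and LOC_Os10g39840 were more than 32-fold higher. Changes of that size made up 33.3% of the higher members and 14.4% of all 1895 higher loci. The folds of OsEXPA12 and LOC_Os10g39840 rest on control values of 0.303 and 0.556 FPKM, so they are less certain than the direction. With a pseudocount of 1 their log2 ratios were 3.24 and 4.71, short of 32-fold. The median log2 ratio was 2.72 over the higher members and 3.14 over all higher loci.

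Several of the lower loosening transcripts were still abundant at day 2. Of the 11 lower members, 8 had more FPKM at day 2 than the median of the higher members at day 2, which was 22.3. LOC_Os06g48160, OsEXPB4 and LOC_Os04g51460 stayed above OsEXPB2, the highest of the higher members. The number of members at or above 100 FPKM was 10 in control and 4 at day 2, these 3 loci and OsEXPB2.

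The call of 7 lower members depended on the scale of the tables. When the day 2 values were multiplied by 1.86, the ratio of the summed FPKM of control to day 2 over all listed loci, 4 members remained past 4-fold lower: the pectinesterase, OsEXPB11, LOC_Os11g33270 and LOC_Os07g34580. The other 7 had ratios on the same side of 0 that no longer reached 4-fold, and the 6 higher members kept their call. With day 2 values divided by the same factor, all 11 lower members kept their call and 3 of the 6 higher members did: OsEXPA12, LOC_Os04g53950 and LOC_Os10g39840. OsEXPA16 and LOC_Os06g22919 also fell short of 4-fold with a pseudocount of 1.

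Neighbouring copies on the same chromosome did not always have the same direction. On chromosome 10, OsEXPB2 and OsEXPB4 lie 21200 bases apart, and the RefSeq gene order places OsEXPB3 between them. OsEXPB4 had 32.7 times the FPKM of OsEXPB2 in control and 1.22 times at day 2, so a pair that differed widely under water was close to even in air. The member loci LOC_Os10g40700 and LOC_Os10g40720, whose IDs are numbered beside theirs, were not listed. On chromosome 6, LOC_Os06g48160 and LOC_Os06g48180 lie 10317 bases apart and were lower together, their ratio of FPKM being 14.5 in control and 16.7 at day 2. Between them lies LOC_Os06g48170 (chr6:29137111-29139490), an XTH locus of the study's list that is not a member, which went the other way. LOC_Os06g48170 had 2.26 FPKM in control and 18.3 at day 2, a log2 ratio of 3.02, and both of its listed transcripts were higher. The ratio of LOC_Os06g48180 to LOC_Os06g48170 was 41.6 in control and 0.824 at day 2. Copies alike in sequence can share reads, and how shared reads were divided was not examined here, so the values of tandem copies are less certain than those of single loci.

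**Figure D2:**
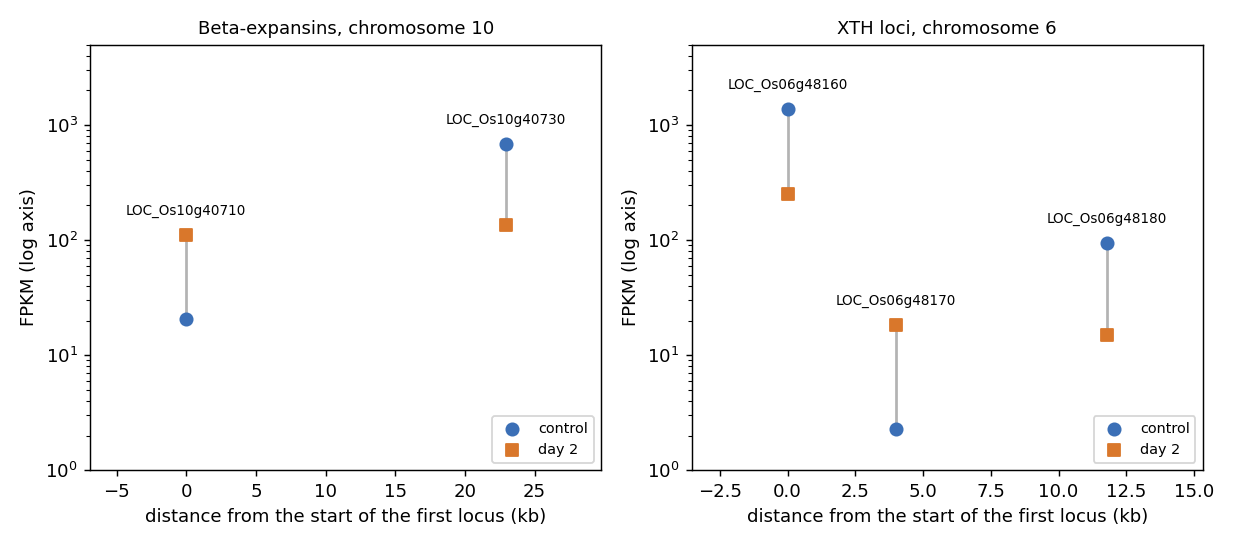
FPKM (log axis) in control (circles) and at day 2 (squares) of neighbouring beta-expansin loci on chromosome 10 (left) and XTH loci on chromosome 6 (right) against the distance in kb from the start of the first locus. OsEXPB2 (LOC_Os10g40710) went from 20.8 to 111.1 and OsEXPB4 (LOC_Os10g40730) from 679.2 to 136.0, and LOC_Os06g48170 went from 2.26 to 18.3 between neighbours that were lower at day 2.

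The study's own list of cell wall loci, which was drawn from these libraries and is not independent evidence of direction, holds 94 loci, 18 members and 76 others. Of the 76 others, 31 were lower, 34 were higher, 10 were at 0 in control, and 1 stayed under 1 FPKM in both groups. Their summed FPKM was 7309 in control and 1283 at day 2, 5.70-fold lower. Lower loci were 40.8% of these others, beside the 34.4% of all listed loci. The counts by family that follow are to be read beside control level: of the 331 listed loci with at least 100 FPKM in control, 98.5% were lower, and abundant loci that did not change by 4-fold are not in the tables.

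Pectinesterases were mostly lower, 8 of the 10 others and 9 of 11 with the member. LOC_Os01g20980 came nearest to LOC_Os02g18650, with 387.8 FPKM in control and 0.765 at day 2, a log2 ratio of -8.99. LOC_Os01g21034 had the highest control level of the others, 482.1 FPKM, and had 27.7 at day 2. The other lower pectinesterases were LOC_Os01g57854 (182.9 FPKM in control and 6.41 at day 2), LOC_Os01g13320 (104.5 and 3.94), LOC_Os01g15039 (16.7 and 1.20), LOC_Os08g34900 (258.0 and 19.0), LOC_Os06g09340 (66.3 and 6.09) and LOC_Os10g26680 (82.6 and 19.6). The 2 that were higher, LOC_Os04g46740 and LOC_Os03g28090, were at 0.275 and 0.0871 FPKM in control and reached 15.9 and 9.75. The summed FPKM of the 11 pectinesterases was 3129 in control and 111.5 at day 2, 28.1-fold lower, and without the member it was 14.3-fold lower.

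Expansins outside the member list were mostly near or at 0 under water. Of these 9 loci, 6 were listed at 0 in control and had between 1.69 and 6.99 FPKM at day 2, the lowest being EXPA14 (LOC_Os02g16780) and the highest EXPB15 (LOC_Os04g46630). LOC_Os01g16770, EXPA28 (LOC_Os10g30340), EXPB18 (LOC_Os05g15690) and LOC_Os06g47360 lay between them, at 6.75, 2.28, 3.40 and 3.34 FPKM. OsEXPA29 (LOC_Os06g50400) had 0.174 FPKM in control and 6.39 at day 2, and the expansin-like LOC_Os09g29710 had 1.58 and 58.2. Of the 9, OsEXLA2 (LOC_Os10g39640), an expansin-like A locus, was the 1 lower, with 195.6 FPKM in control and 45.0 at day 2. Over all 16 listed expansins, 5 were lower, 5 were higher and 6 were at 0 in control. The lower share was thus smaller than in the member list. Loci at or near 0 in control can be listed only as higher, so this contrast is in part set by selection. By level, the 5 lower expansins held nearly all of the expansin FPKM in control, the sum of the listed family being 2472 in control and 588.0 at day 2.

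XTH loci outside the member list were 3, none of them lower. Beside LOC_Os06g48170, LOC_Os08g14200 had 1.33 FPKM in control and 8.27 at day 2, and LOC_Os04g51510 was listed at 0 in control and had 5.15 at day 2. Over all 13 listed XTH loci, 6 were lower, 5 were higher and 2 were at 0 in control.

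**Figure D3:**
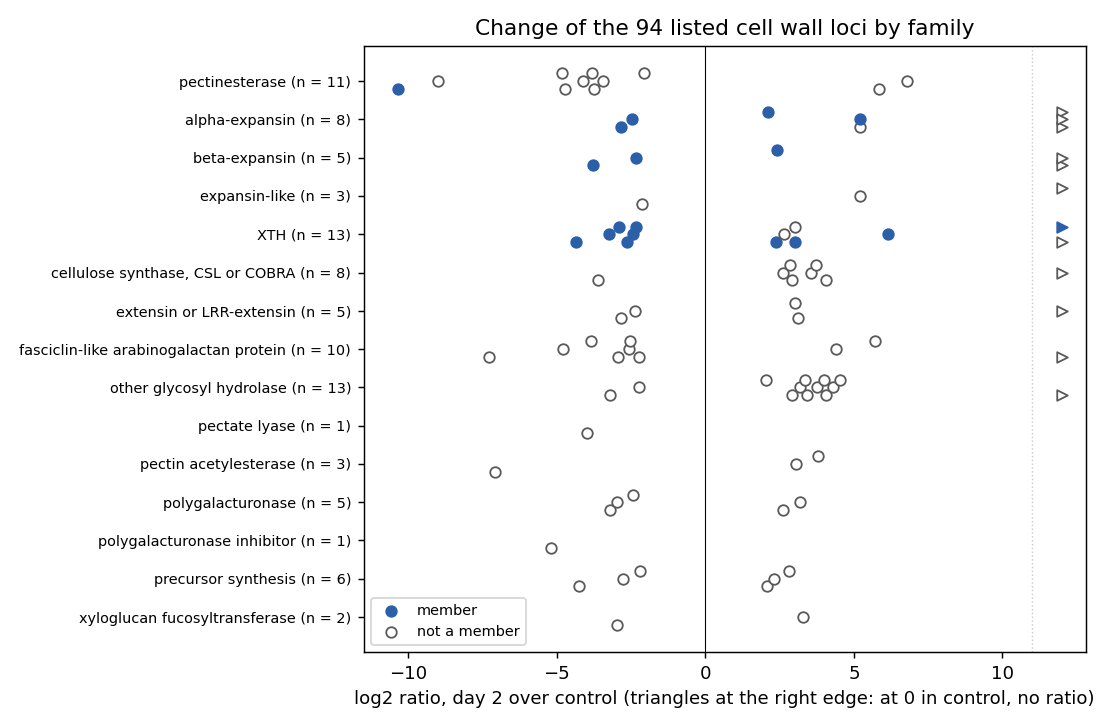
Log2 ratio of day 2 to control for the 94 cell wall loci of the study's list by family, with members filled and others open, and loci at 0 in control as triangles at the right edge, 1 of which stayed under 1 FPKM. Pectinesterases lie mostly to the left of 0, 9 of 11, whereas other glycosyl hydrolases lie mostly to the right, 10 of 13 being higher and 1 more at 0 in control.

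Further families of the list differed in direction. Fasciclin-like arabinogalactan proteins, cell surface glycoproteins, were lower at 7 of 10 loci, among them LOC_Os05g48890 with 1117 FPKM in control and 40.4 at day 2, and LOC_Os09g30486 was higher, from 1.38 to 29.3. The pectate lyase LOC_Os04g05050, which cleaves de-esterified pectin, had 420.4 FPKM in control and 26.5 at day 2. Pectin acetylesterases, which remove acetyl groups from pectin, were lower at 1 of 3 loci, LOC_Os04g51340, with 1064 FPKM in control and 7.93 at day 2. Polygalacturonases, which cut the pectin backbone, were lower at 3 of 5 loci, LOC_Os07g14160 going from 108.6 to 11.8 FPKM and LOC_Os10g26940, a higher one, from 3.37 to 30.5. A polygalacturonase inhibitor, LOC_Os05g01444, had 36.6 FPKM in control and 1.01 at day 2. The pectin acetylesterases and polygalacturonases thus held loci of both directions, as the pectinesterases did, and those that were lower had the higher control levels.

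Cellulose synthases, cellulose synthase-like loci and COBRA loci, which build or orient cellulose and related glucans, were higher at 6 of 8 loci, LOC_Os09g25490 going from 1.27 to 21.0 FPKM. Another, LOC_Os08g15420, was listed at 0 in control and had 18.2 FPKM at day 2. The lower one was LOC_Os07g41310, a COBRA locus, which had 117.1 FPKM in control and 9.55 at day 2. Glycosyl hydrolases other than XTH and polygalacturonases were higher at 10 of 13 loci, LOC_Os10g38040 going from 2.22 to 37.1 FPKM, and LOC_Os01g19220 was lower, from 117.6 to 12.6. Extensins and extensin-like receptors, structural wall glycoproteins, were lower at 2 of 5 loci, LOC_Os01g41120 going from 169.6 to 23.7 FPKM, and LOC_Os03g58110 was higher, from 3.41 to 29.8. Loci of wall precursor synthesis were lower at 3 of 6, LOC_Os09g32670 going from 546.5 to 28.8 FPKM, and LOC_Os07g47700 was higher, from 6.06 to 43.0. Of the xyloglucan fucosyltransferases, which decorate the polymer that XTH enzymes cut, LOC_Os02g17534 went from 79.2 to 10.1 FPKM and LOC_Os02g52590 from 1.37 to 13.3.

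The first leaf grows inside the coleoptile, so transcripts of green leaf tissue were read as a measure of other tissue. Of 5 marker loci for Rubisco small subunit and light harvesting, 4 were listed, 3 were higher and 1 was lower, and their summed FPKM was 100.3 in control and 777.5 at day 2. Rubisco small subunit LOC_Os12g19381 had 21.3 FPKM in control and 507.9 at day 2, LOC_Os12g19470 had 6.35 and 53.8, and the chlorophyll binding protein LOC_Os01g41710 had 29.6 and 206.0. Another Rubisco small subunit locus, LOC_Os12g17600, had 43.1 FPKM in control and 9.82 at day 2, and LOC_Os09g17740 was not listed. The study reported ribulose bisphosphate carboxylase significantly lower by quantitative PCR as senescence went on, and its text does not name the locus. A coleoptile itself turns green in air, and the part of these transcripts in the results on wall loci was not tested.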

How the data were processed

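RNA of 4 coleoptile libraries was sequenced as paired reads. Reads were filtered by quality, mapped with TopHat to IRGSP-1.0, assembled into transcripts with Cufflinks and Cuffmerge and compared by the authors with Cuffdiff, whose methods do not state its scaling option. As deposited, each transcript has 1 FPKM per group, in which the authors pooled both libraries. The study states reads per library, but the tables give no fragments behind a pooled FPKM, so no interval was computed.

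FPKM were summed over the transcripts of a locus, after removal of a blank at the end of the locus ID in 63 transcripts, giving 3141 loci with an ID and 198 transcripts without. Log2 ratios of day 2 over control were taken with no pseudocount. A locus was called at an absolute log2 ratio of at least 2 with FPKM of at least 1 in at least 1 group, and a locus at 0 in control got no ratio. With 1 value per group no test was run, limma included, which had been planned in case each library had its own values. Python 3.11.15, pandas 2.3.3 and numpy 2.4.6 were used.

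Named loci were all listed members, all other expansin, XTH and pectinesterase loci of the study's list, and in each other wall family the largest change in each direction with FPKM of at least 1 in both groups. Neighbours of members were chosen after their values were seen. Expansin names come from the study's annotation and, for loci paired there with a gene ID, from RefSeq (assembly ASM3414082v1). Such an ID was present for 13 of the 18 listed members, all of which matched, 5 with an expansin name. Members, lists and markers were chosen with earlier results of these data known. Alternatives were other pseudocounts, filters and scalings, and single transcripts. Not analysed here were values per library and protein and promoter sequences.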

Additional observations from a re-analysis of the deposited data

How the results depend on the processing

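Of the log2 ratios of 17 members, 3 moved by more than 0.1 when 0.1 FPKM was added to each value and 6 when 1 FPKM was, while filters cannot move a ratio. Counts of lower and higher members, expansins and XTH loci stayed within 1.5 times under pseudocounts of 0.1 and 1, without a filter, with FPKM of at least 1 in both groups or at least 5 in 1, and with each transcript on its own. FPKM of at least 1 in both groups left 22 of the 34 other wall loci that were higher, since loci under 1 in control were dropped. With day 2 values multiplied by 1.86, lower loci numbered 4 members, 1 expansin, 2 XTH and 20 other wall loci, and the summed FPKM of the members at day 2 was 0.262 of control, against 0.141 as deposited. With day 2 values divided by 1.86, higher loci numbered 3 members and 1 expansin, and the summed ratio was 0.0755. The tables hold changed transcripts, so neither scale is a known depth correction. No paired analysis was possible because each group has a single pooled value, and for the same reason no replicate could be left out.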

Other observations

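Some listed loci beside members were picked after their values were seen, and they are given as values only. LOC_Os07g34570, annotated by the study as a FAD dependent oxidoreductase, lies 3361 bases from the XTH member LOC_Os07g34580 and had 1.87 FPKM in control and 257.1 at day 2, a log2 ratio of 7.11, where the XTH locus went from 137.4 to 14.7. LOC_Os06g22960, annotated as an aquaporin, lies 17046 bases from LOC_Os06g22919 and had 5761 FPKM in control and 700.5 at day 2, a log2 ratio of -3.04, where LOC_Os06g22919 had a log2 ratio of 2.37. LOC_Os02g57760, annotated as an O-methyltransferase, lies 3041 bases from the XTH member LOC_Os02g57770 and had 2.98 FPKM in control and 15.9 at day 2, and both were higher at day 2 than in control. In the pairs on chromosomes 7 and 6 the neighbours thus moved in opposite directions. Because the pairs were picked, they do not show how often neighbours differ.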
